A study of Mus musculus with 7 samples.

Results

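Myeloid C-type lectin receptors are surface proteins through which macrophages, dendritic cells, monocytes and neutrophils read sugars, lipids and debris of dying cells. Here 10 receptor genes named for this role were followed in macrophages sorted from GL261 tumours and from normal mouse brain: Clec7a, Clec4n, Clec4d, Clec4e, Clec5a, Clec12a, Clec4a2, Clec10a, Mgl2 and Cd209a. A gene entered where the array annotation gave a probe set exactly 1 symbol and that symbol was on the list, and all its probe sets were kept. By that rule 9 of the 10 genes were found, with 12 probe sets of the 34945 that carried 1 symbol. Clec12a was not analysed here, because no probe set of the annotation table carried its name. The 9 genes stood among 18193 measured genes.

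The tumour group was 4 arrays of GFP and F4/80 sorted cells from GL261 tumours 21 days after injection into the brains of C57/Bl6 mice that had been transplanted with GFP bone marrow. The other group was 3 arrays of cells sorted with the same markers from normal brain of C57/Bl6 mice, which were 8 weeks old. GL261 is a mouse glioma line, and the labels give no age for the tumour-bearing mice. Whether mice of the normal brain group also carried GFP marrow is not given, nor whether an array was 1 mouse or a pool. For this reason p-values reflect no more than the variation among the arrays, which may be technical. Brains of both groups were enzymatically digested before the sort (PAPIN in the labels). In sorted material of this kind, fewer cells of a type and less RNA per cell cannot be told apart.

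The receptors fall into 3 working groups. Clec7a (Dectin-1) carries its own signalling motif, Clec4n (Dectin-2), Clec4d and Clec4e (Mincle) signal through the adaptor Fcer1g, and Clec5a signals through Tyrobp. All of these activate the kinase Syk, which acts through Card9, Bcl10 and Malt1 on cytokine genes. Clec4a2 and Clec12a carry inhibitory motifs that recruit phosphatases such as Ptpn6. Clec10a and Mgl2 bind galactose-type sugars and Cd209a belongs to the mouse family related to DC-SIGN, and these genes are known markers of certain dendritic cells and of some macrophages. In brain, Clec7a is widely used as a marker of microglia responding to disease.

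Values are MAS5 signals, which are linear intensities scaled by the authors to a common mean on each array. Tests were run on log2(signal + 6) in limma, with Benjamini-Hochberg adjustment over the 12125 genes that passed a filter on low signal, and a gene was called at an adjusted p under 0.05. All 9 receptor genes passed the filter. All 12 probe sets were above the background of each of the 7 arrays, taken as the 95th percentile of 27 bacterial control probe sets (log2 4.19 to 4.70). Pairs of GL261 arrays correlated at 0.942 to 0.954, pairs of normal brain arrays at 0.896 to 0.927, and pairs across the groups at 0.875 to 0.922. Among the last, GL261 replicate 2 and normal brain replicate 1 were the closest pair. The Gapdh 3' to 5' ratio, a sign of RNA quality, was 1.64 to 1.89 on the GL261 arrays and 2.39 to 2.43 on the normal brain arrays. It separated the groups completely, so its part in any group difference below cannot be told apart from the sort or the tumour. Of the markers of the sorted population, 0 of 6 were called, and 1, Ptprc, was called with the mean of a gene's probe sets. For Adgre1, the gene of F4/80, the groups did not overlap, and the log2 fold change was -0.39 (adjusted p = 0.0814 in limma). The leukocyte gene Ptprc stood at -0.36 (adjusted p = 0.163), or -0.57 with the mean of its probe sets (adjusted p = 0.0488). Other values were Csf1r at -0.28, Itgam at 0.88, Aif1 at 0.08 and Cd68 at 0.05. Csf1r signals lay between 9415 and 14872 in GL261 and between 12502 and 17396 in normal brain.

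In GL261 macrophages the mannan receptor gene Clec4n was higher and the galactose receptor gene Clec10a was lower, and the other 7 receptor genes were not called. That is 2 of 9 genes (22.2%), against 10.1% of all tested genes. In each direction it is 1 of 9 genes (11.1%), against 5.92% of all genes called higher and 4.20% called lower, so with 9 genes the counts amount to single genes and say nothing of the family. GL261 and normal brain arrays were fully separate for 5 of the 9 genes (55.6%), against 23.4% of all genes tested. Those were Clec4n, Clec7a and Clec5a with higher values in GL261, and Clec10a and Cd209a with lower ones. The median log2 fold change was 0.12 over the 9 genes and 0.04 over all genes. The receptor median was 0.24 under quantile normalization, 0.41 with the mean of a gene's probe sets, and 0.19 without GL261 replicate 1 or normal brain replicate 2.

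**Figure D1:**
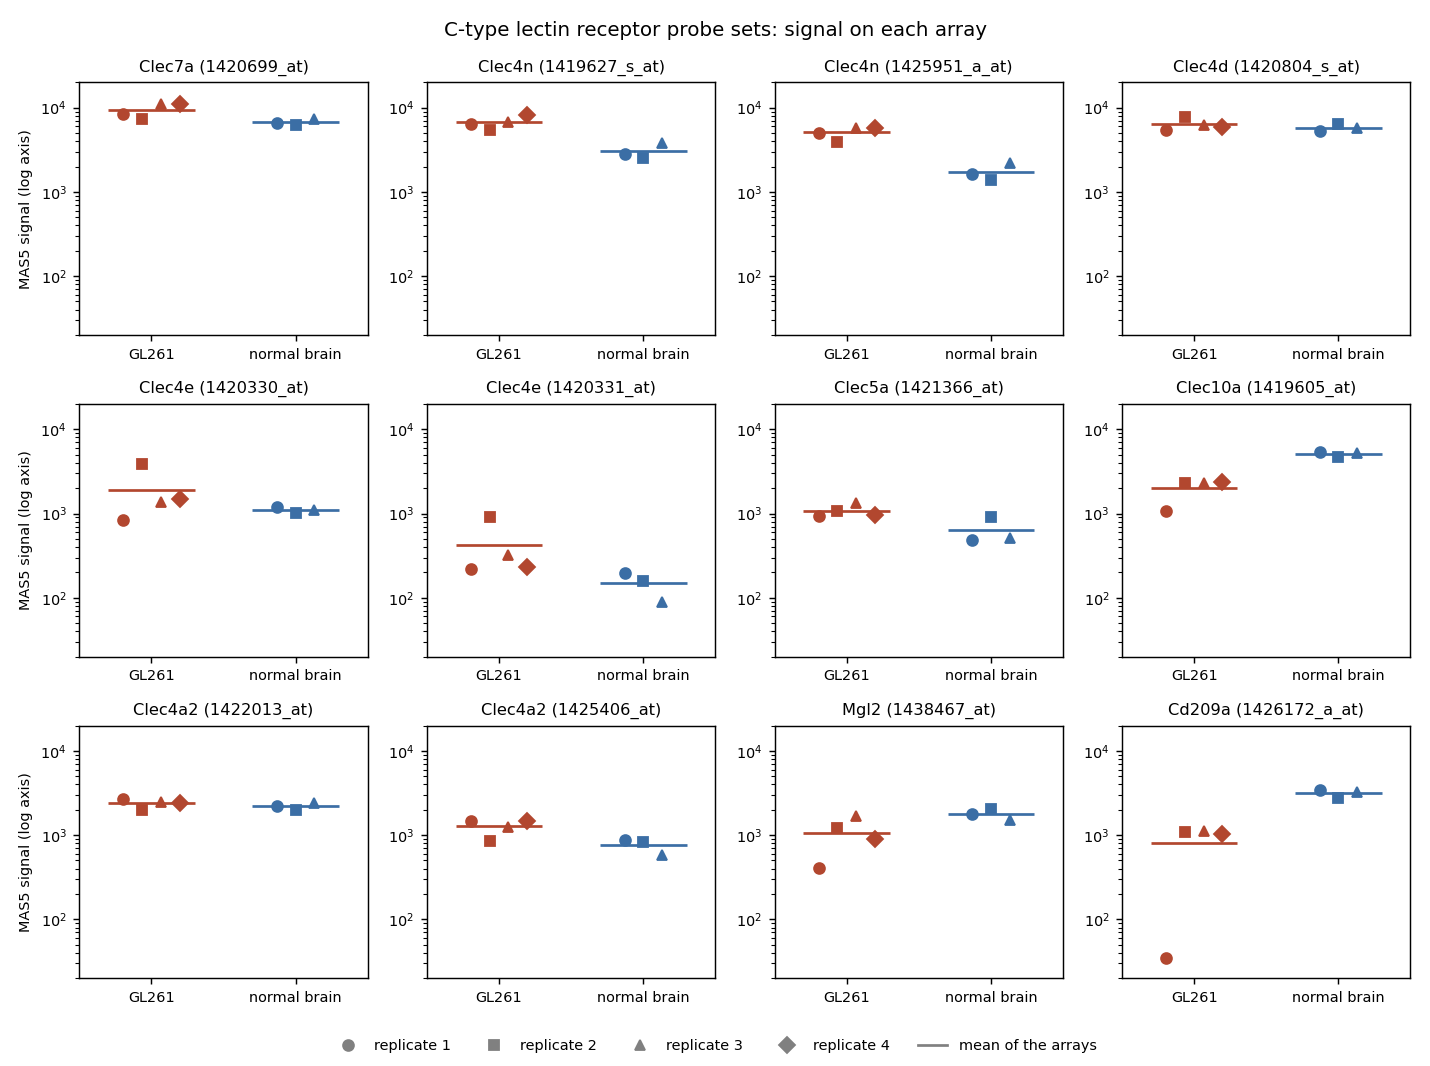
MAS5 signal (log axis) of the 12 receptor probe sets on each of 4 GL261 arrays (red, left) and 3 normal brain arrays (blue, right), with the mean of each group as a line and the replicate as the marker shape. Clec4n lies higher in GL261 in both probe sets and Clec10a and Cd209a lower, and GL261 replicate 1 stands at 34.6 for Cd209a.

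The sequence tables held the region before the start of 8 of the 10 listed genes, without Clec4n and Clec10a. The 250 bases before the start are shown for the 4 measured genes among them with the largest fold changes, Cd209a, Mgl2, Clec5a and Clec4e. None of the 4 was called with all arrays, so the motif copies given below cannot be related to a change in expression. Capitals mark each GAGGAA, a core of the site bound by the myeloid factor PU.1, on either strand (TTCCTC on the strand shown is the same site on the other). Sequences are those of RefSeq in GRCm38.p6 and run 5' to 3' on the strand of the gene.
Cd209a (chr8:3748985-3749234, minus strand): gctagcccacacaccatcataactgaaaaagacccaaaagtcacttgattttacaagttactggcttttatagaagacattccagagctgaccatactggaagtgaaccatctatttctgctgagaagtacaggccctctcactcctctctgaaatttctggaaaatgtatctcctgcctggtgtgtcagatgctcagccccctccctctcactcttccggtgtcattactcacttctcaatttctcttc
Mgl2 (chr11:70130107-70130356, plus strand): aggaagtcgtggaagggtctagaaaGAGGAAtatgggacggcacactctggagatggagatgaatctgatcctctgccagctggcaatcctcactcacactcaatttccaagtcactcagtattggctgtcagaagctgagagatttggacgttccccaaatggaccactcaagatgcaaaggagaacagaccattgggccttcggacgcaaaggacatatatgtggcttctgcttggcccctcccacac
Clec5a (chr6:40585806-40586055, minus strand): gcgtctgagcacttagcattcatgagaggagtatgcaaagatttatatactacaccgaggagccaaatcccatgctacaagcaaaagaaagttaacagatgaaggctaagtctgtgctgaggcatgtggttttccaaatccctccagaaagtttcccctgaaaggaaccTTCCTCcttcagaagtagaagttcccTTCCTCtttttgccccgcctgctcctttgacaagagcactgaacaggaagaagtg
Clec4e (chr6:123289872-123290121, minus strand): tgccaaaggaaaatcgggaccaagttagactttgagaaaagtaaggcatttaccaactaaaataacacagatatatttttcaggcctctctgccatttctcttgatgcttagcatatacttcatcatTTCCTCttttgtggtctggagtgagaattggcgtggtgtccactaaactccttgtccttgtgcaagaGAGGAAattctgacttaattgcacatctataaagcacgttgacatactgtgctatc
Clec5a and Clec4e each held 2 copies of GAGGAA, Mgl2 held 1 far from the start and Cd209a held 0. Clec4a2, which is not shown and was nearly level in its stronger probe set, also held 0. Over the 8 genes 6 held at least 1: Clec4d, Clec4e, Clec5a, Clec7a, Mgl2 and Clec12a, which was not measured here. Counted by promoter entry this was 7 of 9, against 23.3% of 32851 entries of the same length. The motif TTGCNNAA, of C/EBP factors, was in Clec4e and Clec12a (9.56% of all entries) and TGANTCA, of AP-1, in Clec12a (6.75%). All motifs were searched on both strands. A match is a run of letters and was not tested for binding, and a missing match says nothing of the factor.

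The clearest increase was that of Clec4n, the Dectin-2 gene, whose protein binds mannans and pairs with Fcer1g. Its signal in probe set 1419627_s_at was 6485, 5372, 6726 and 8119 on GL261 arrays 1 to 4, against 2828, 2493 and 3815 on normal brain arrays 1 to 3. The lowest GL261 array was thus well above the highest normal brain array. The log2 fold change was 1.14 (SE 0.18, 95% confidence interval 0.74 to 1.54, adjusted p = 0.00371 in limma), or 2.20-fold. A second Clec4n probe set, 1425951_a_at, read 5042, 3875, 5804 and 5768 in GL261 and 1637, 1383 and 2219 in normal brain. It gave a log2 fold change of 1.56 (SE 0.20), called at an adjusted p of 0.00237 in the limma fit of every probe set. That fit tested 27022 probe sets and called 5.45% of them, among them 3 of the 12 receptor probe sets, the pair for Clec4n and the one for Clec10a. Clec4n kept its call in every fit without 1 array, with log2 fold changes of 1.01 to 1.31. The suffix _s_at marks probe sets whose probes can match more than 1 transcript, and the annotation names Clec4n alone for this one.

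Clec7a, the beta-glucan receptor Dectin-1, had signals of 8362, 7438, 11037 and 11148 on GL261 arrays 1 to 4, against 6596, 6205 and 7265 in normal brain. Every GL261 array was above every normal brain array, but GL261 replicate 2 by a small margin. The log2 fold change was 0.49 (SE 0.17, interval 0.11 to 0.86) and was not called (adjusted p = 0.0921 in limma). It was called without GL261 replicate 2, at 0.60 (adjusted p = 0.0486), and under quantile normalization, at 0.64 (adjusted p = 0.000737).

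Clec5a, whose protein signals through Tyrobp, followed a like course at lower signal. It read 943, 1061, 1320 and 951 in GL261, against 490, 913 and 508 in normal brain. Normal brain replicate 2 came close to the lowest GL261 arrays, and the other normal brain arrays were clearly lower. Its log2 fold change of 0.79 (SE 0.26, interval 0.21 to 1.37) was not called (adjusted p = 0.0806 in limma). Without normal brain replicate 2 it was 1.08 and was called (adjusted p = 0.0240).

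Clec4d and Clec4e, neighbours whose proteins form a receptor for mycobacterial glycolipid and, for Mincle, for a nuclear protein released by dying cells, were not called in any of their probe sets. Clec4d signals were 5442, 7852, 6237 and 5877 in GL261 and 5296, 6335 and 5760 in normal brain, so the groups overlapped. The difference on the log2 scale was 0.12 (interval -0.22 to 0.46, adjusted p = 0.661 in limma), and it turned to -0.05 when GL261 replicate 2 and normal brain replicate 1 were both left out. Clec4e in probe set 1420330_at was at 3922 on GL261 replicate 2 and at 839, 1369 and 1477 on GL261 replicates 1, 3 and 4, against 1194, 1011 and 1104 in normal brain. GL261 replicate 1 was below all normal brain arrays and replicate 2 far above them. Its log2 fold change of 0.54 (interval -0.31 to 1.40, adjusted p = 0.413 in limma) became 0.12 without GL261 replicate 2 (adjusted p = 0.831) and 0.85 without GL261 replicate 1 (adjusted p = 0.172). The weaker Clec4e probe set, 1420331_at, read 222, 906, 322 and 233 in GL261 and 198, 160 and 88.1 in normal brain. Here the groups did not overlap, yet the log2 fold change of 1.28 (interval 0.11 to 2.45) was not called either (adjusted p = 0.189 in the fit of every probe set). Both Clec4e probe sets were highest on GL261 replicate 2.

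Clec4a2, the inhibitory receptor known as DCIR, was nearly level in its stronger probe set, 1422013_at, with 2666, 1987, 2479 and 2392 in GL261 and 2238, 2015 and 2396 in normal brain. The log2 fold change was 0.10 (interval -0.24 to 0.44, adjusted p = 0.734 in limma), which leaves room for a change of up to 1.36-fold in the upward direction. Its other probe set, 1425406_at, differed in the reading: 1486, 847, 1260 and 1474 in GL261 against 869, 819 and 578 in normal brain. There only GL261 replicate 2 fell within the normal brain range, and the log2 fold change of 0.73 (interval 0.17 to 1.29) was not called (adjusted p = 0.120 in the fit of every probe set). The probe sets therefore disagree in size. A further probe set that the annotation assigns to both Clec4a2 and Clec4b1 was not used.

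**Figure D2:**
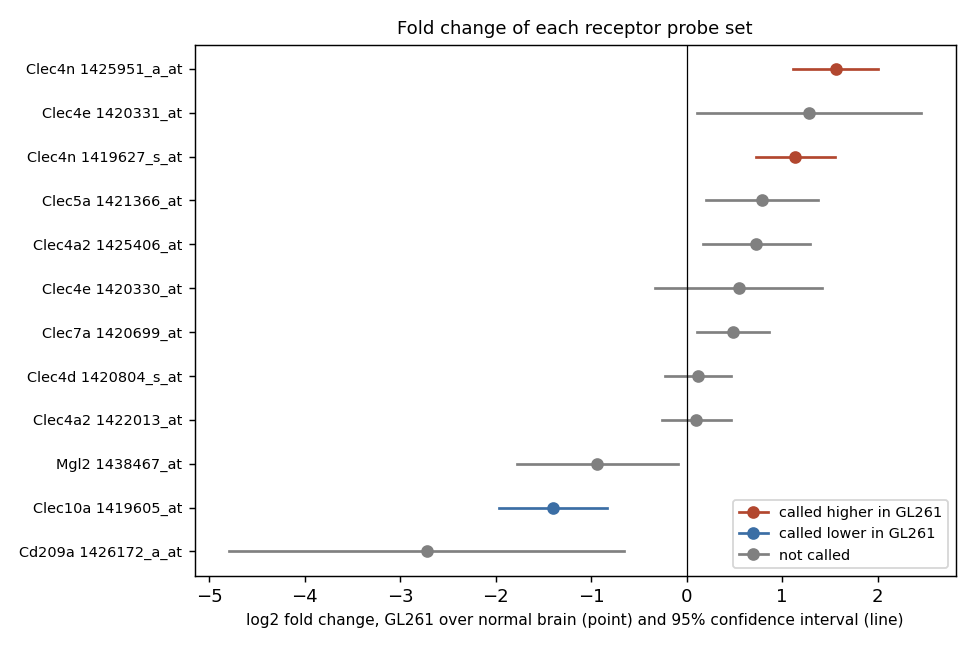
Log2 fold change of GL261 over normal brain (points) with its 95% confidence interval (lines) for each of the 12 receptor probe sets, from the limma fit of every probe set. The pair of Clec4n probe sets is called higher, Clec10a lower, and the widest interval is that of Cd209a.

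Clec10a, Mgl2 and Cd209a, grouped above by galactose-type binding or kinship to DC-SIGN, all had lower means in GL261, and 1 of the 3, Clec10a, fell. Clec4n and Clec7a, whose proteins also bind sugars, had higher means in GL261. Clec10a encodes the macrophage galactose lectin that binds Lewis X type glycans. Its signals were 1083, 2286, 2332 and 2392 in GL261, against 5311, 4695 and 5299 in normal brain. Every GL261 array was below every normal brain array, and replicate 1 was lower than the other 3. The log2 fold change was -1.40 (SE 0.25, interval -1.95 to -0.85, adjusted p = 0.00643 in limma), or 2.64-fold lower in GL261. It stayed called in all 7 fits without 1 array (adjusted p 0.00287 to 0.0233), with -1.12 when GL261 replicate 1 was left out, and lost the call when variances were not allowed to follow the mean signal (adjusted p = 0.0572).

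Cd209a had the widest difference and the least even one. It read 34.6, 1076, 1119 and 1018 on GL261 arrays 1 to 4, against 3390, 2740 and 3289 in normal brain. Replicates 2 to 4 of GL261 lay close together at less than the lowest normal brain value, while replicate 1 was near the background of its array, a signal of 13.2. With all arrays the log2 fold change of -2.72 (SE 0.92, interval -4.74 to -0.71) was not called (adjusted p = 0.0841 in limma). Without GL261 replicate 1 it was smaller, -1.54, and was called (adjusted p = 0.00127).

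Mgl2, the close relative of Clec10a that binds N-acetylgalactosamine, read 410, 1224, 1666 and 891 in GL261 and 1802, 2059 and 1529 in normal brain. GL261 replicate 3 lay within the normal brain range, and replicate 1 was again the lowest. A log2 fold change of -0.93 (interval -1.75 to -0.12) was not called (adjusted p = 0.137 in limma), and it was -0.55 without GL261 replicate 1 (adjusted p = 0.220).

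Among the 4 GL261 arrays, replicate 1 was the lowest for 6 of the 9 genes, namely Clec4d, Clec4e, Clec5a, Clec10a, Mgl2 and Cd209a, and it was the highest for Clec4a2. Replicate 2 was the lowest for Clec7a, Clec4n and Clec4a2 and the highest for Clec4d and Clec4e. Relative to the mean of the 7 arrays, Clec4e stood at 1.52 on the log2 scale on GL261 replicate 2 and at -0.70 on replicate 1, and Cd209a at -4.71 on replicate 1.

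**Figure D3:**
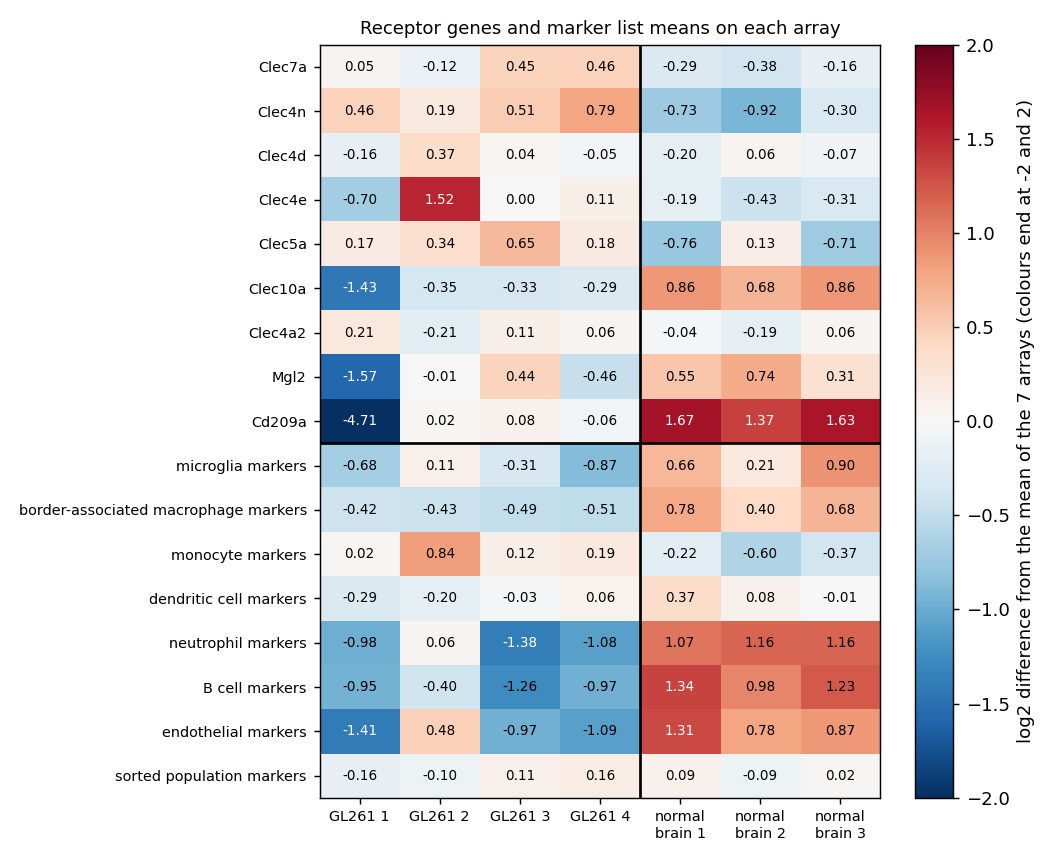
Log2 difference from the mean of the 7 arrays for the 9 receptor genes (upper block) and for the mean of 8 marker lists (lower block), with GL261 arrays left of the line and normal brain arrays right of it. GL261 replicate 1 is low for Clec10a, Mgl2 and Cd209a, and GL261 replicate 2 is the highest of the 7 arrays for Clec4e and for the monocyte list. For the neutrophil and endothelial lists it is the highest of the GL261 arrays but below every normal brain array.

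Because Clec4d and Clec4e are also expressed by neutrophils and monocytes, the markers of those cells are given beside them. Of 9 tested neutrophil genes 6 fell and 0 rose. Their mean log2 level was 8.58 on GL261 replicate 2 and 7.14 to 7.54 on the other GL261 arrays, against 9.59 to 9.68 in normal brain. The summed signal of the 10 measured genes was 17098 to 23636 in GL261 and 40938 to 52594 in normal brain, and Elane was at background on all GL261 arrays. Within GL261 the mean level of the neutrophil list was highest on replicate 2. The same held for the microglia, B cell, endothelial and oligodendrocyte lineage lists. It did not hold for the border-associated macrophage, dendritic cell, T and NK cell, astrocyte and neuron, or sorted population lists. Of 8 monocyte genes 3 rose (Chil3, F10 and Fn1) and 2 fell (Ccr2 and Nr4a1). Without normal brain replicate 3 the number called was 3. F10 had a log2 fold change of 2.41 (adjusted p = 0.000351 in limma) and Fn1 of 1.31 (adjusted p = 0.0180). With the mean of its probe sets Fn1 was at 1.75 and not called (adjusted p = 0.0796). The monocyte list had a mean log2 level of 11.43 on GL261 replicate 2 and 10.61 to 10.78 on the other GL261 arrays. In normal brain it was 9.99 to 10.37. The summed signal of the list was 23583 to 31960 in GL261 and 25070 to 30418 in normal brain. The part of these cells in the Clec4e value of replicate 2 was not tested.

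Clec10a, Mgl2 and Cd209a are known from dendritic cells and from macrophages at the borders of the brain, and markers of both are given beside them. Of 13 tested dendritic cell genes 2 fell and 1 rose, and without GL261 replicate 1 the number called was 1. The growth factor receptor gene Flt3 had a log2 fold change of -1.12 (adjusted p = 0.0205 in limma) and read 624 on GL261 replicate 1 and 644 to 721 on the others, against 911 to 1908 in normal brain. It lost its call in 5 of 7 fits with an array left out (adjusted p up to 0.0693). The gene that rose was Htr7, a serotonin receptor gene, with 484, 634, 531 and 692 in GL261 and 158, 42.0 and 152 in normal brain (log2 fold change 2.45, adjusted p = 0.00913). With the mean of its probe sets Htr7 was at 1.27 and not called (adjusted p = 0.158). The mean log2 level of the dendritic cell list was 9.87 on GL261 replicate 1 and 9.96 to 10.22 on the other GL261 arrays, against 10.15 to 10.53 in normal brain. Its summed signal was 19229 to 28359 in GL261 and 34042 to 35277 in normal brain, with all 13 measured genes above background on every array. Of 10 tested border-associated macrophage genes 8 fell and 0 rose. Leaving out an array gave 4 called genes (GL261 replicate 1 or 3, or normal brain replicate 2), 5 (GL261 replicate 4, or normal brain replicate 1) or 6 (GL261 replicate 2, or normal brain replicate 3). This list had mean log2 levels of 9.12 to 9.21 in GL261 and 10.03 to 10.41 in normal brain, with summed signals of 32919 to 38666 in GL261 and 52495 to 61227 in normal brain. Cd209b and Cd209f were at background on all GL261 arrays. On GL261 replicate 1 the border-associated list stood at 9.21, a mean over the list that does not give the level of any single gene. The part of either cell type in the lower receptor values was not tested.

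Markers of other cells differed between the groups as well, and their part in the receptor values was not tested. Of the genes tested, 7 of 8 microglia and 4 of 5 B cell genes fell, as did 3 of 6 endothelial genes. Of T and NK cell genes 1 of 6 rose, of astrocyte and neuron genes 1 of 7, and of oligodendrocyte lineage genes 3 of 5, with 1 that fell. The gene of the T and NK list was Cd8a, at a log2 fold change of 3.03, which was 1.61 and not called without GL261 replicate 4 (adjusted p = 0.153), while 2 genes of that list were called without GL261 replicate 2 or normal brain replicate 2. Without GL261 replicate 3 or 4, or normal brain replicate 1 or 2, 0 astrocyte and neuron genes were called. The microglia list had mean log2 levels of 9.18 to 10.16 in GL261 and 10.26 to 10.95 in normal brain, with summed signals of 18208 to 25282 in GL261 and 36585 to 43232 in normal brain. Its number of called genes was 4 without normal brain replicate 3 or GL261 replicate 4.

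**Figure D4:**
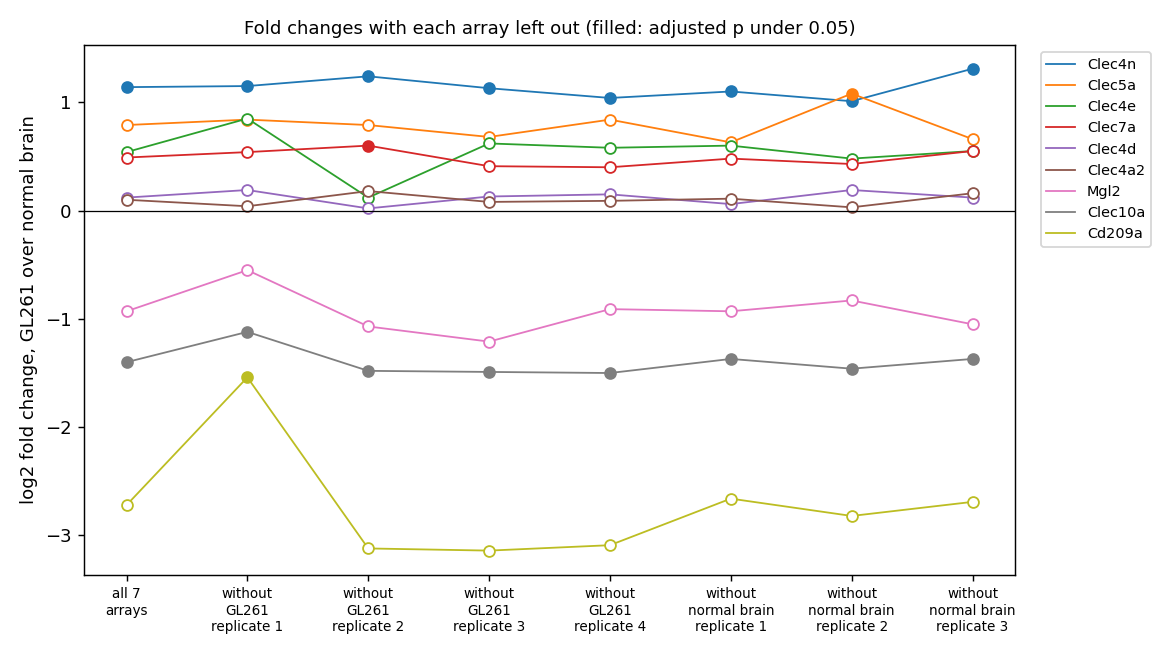
Log2 fold change of GL261 over normal brain for the 9 receptor genes with all 7 arrays and with each array left out, filled where the adjusted p was under 0.05. Clec4n and Clec10a stay called throughout, Cd209a is called without GL261 replicate 1, Clec7a without GL261 replicate 2 and Clec5a without normal brain replicate 2.

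The adaptors that the activating receptors need were at high signal in both groups and were not called. They are named here after their values were seen. Fcer1g, the partner of Clec4n, Clec4d and Clec4e, read 11578, 10725, 16372 and 18050 in GL261 and 13600, 16069 and 19554 in normal brain, with a log2 fold change of -0.23 (interval -0.68 to 0.22). Tyrobp, the partner of Clec5a, had a log2 fold change of -0.27 (interval -0.72 to 0.18) and the kinase gene Syk 0.17 (interval -0.20 to 0.53). Groups overlapped for all 3 genes. Downstream, Bcl10 was at -0.23 and Malt1 at 0.32, and neither was called (adjusted p = 0.308 and 0.145 in limma). For these genes the groups did not overlap, with every GL261 array below every normal brain array for Bcl10 and above for Malt1. Over the whole list of adaptors and early signalling genes, 2 of 20 tested genes rose and 1 fell, so the share called is close to the 10.1% of all genes. The kinase gene Fyn and the PI3-kinase subunit gene Pik3r1 had log2 fold changes of 0.67 (adjusted p = 0.0407) and 0.79 (adjusted p = 0.0168), and the exchange factor gene Vav2 fell by 0.72 (adjusted p = 0.0131). With the mean of a gene's probe sets Vav2 was at -0.41 (adjusted p = 0.494) and Pik3r1 at 0.45 (adjusted p = 0.154), and neither was called. Without GL261 replicate 3 or 4 the list held 1 called gene, and with each array centred on its median it held 0. Fyn lost its call without normal brain replicate 2 (adjusted p = 0.118) and without each GL261 array in turn (0.0629, 0.0843, 0.0881 and 0.101). Of the 3 phosphatase genes that serve the inhibitory receptors 0 were called, with Ptpn6 at -0.02, Ptpn11 at 0.19 and Inpp5d at 0.12, and 0 were called in any of 19 alternatives.

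Of 16 tested cytokine and early-response genes that Syk and Card9 can induce, 8 fell, 1 rose and 7 were not called, with a median log2 fold change of -0.76. Without normal brain replicate 3, or when variances did not follow the signal, 5 were called. These genes answer many receptors, not C-type lectins alone. Egr3, an early-response transcription factor gene, read 710, 1000, 729 and 1070 in GL261 and 3063, 2482 and 2579 in normal brain (log2 fold change -1.64, adjusted p = 0.000839 in limma). Tnf read 1149, 1350, 1458 and 1011 in GL261 and 3593, 2185 and 3224 in normal brain (log2 fold change -1.25, adjusted p = 0.00416). For both genes no GL261 array reached the lowest normal brain array. Ccl2, a monocyte attractant, fell by 1.29 on the log2 scale, Il10 fell by 1.83 and Cxcl1 fell by 1.33. When any array other than normal brain replicate 2 was left out, Cxcl1 was no longer called (highest adjusted p 0.117, with normal brain replicate 3 left out). The gene that rose was Il1rn, which encodes the inhibitor of interleukin 1, with 5067, 5106, 6180 and 6648 in GL261 and 3126, 2715 and 3384 in normal brain (log2 fold change 0.90, adjusted p = 0.00509). Il1b itself was not called (-0.23, adjusted p = 0.470).

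Of 7 tested genes for endogenous ligands 2 rose and 0 fell, where 5.92% of all genes were called higher and 4.20% lower. The median log2 fold change of the list was -0.05. Lgals9, whose galectin has been described as a ligand of Dectin-1, read 3290, 3954, 3917 and 2992 in GL261 and 2499, 1855 and 1845 in normal brain (log2 fold change 0.78, adjusted p = 0.0158 in limma). The groups did not overlap, and the call was lost without GL261 replicate 3 (adjusted p = 0.0554). Anxa5, an annexin exposed on dying cells, had a log2 fold change of 0.47 (adjusted p = 0.0449) and was not called once any array was left out (adjusted p up to 0.122).

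Other C-type lectin genes of myeloid cells gave 3 called genes among 17 tested of 26 measured, where 10.1% of all genes were called. All 3 fell, where 4.20% of all genes were called lower, and the median log2 fold change over the list was 0.09. Under 19 alternatives the number called in this list ranged from 1 to 5. Clec4b1 had the steepest decrease, with 136, 328, 346 and 57.1 in GL261 and 1504, 1517 and 1188 in normal brain. Its log2 fold change was -2.96 (SE 0.53, adjusted p = 0.00655 in limma). Cd209c, of the same family as Cd209a, read 31.0, 131, 124 and 58.1 in GL261 and 1032, 229 and 769 in normal brain (log2 fold change -2.83, adjusted p = 0.0174), and it lost the call without normal brain replicate 1 (adjusted p = 0.0591). Mrc1, the mannose receptor gene, fell by 0.69 on the log2 scale (adjusted p = 0.0407), and this call was lost without normal brain replicate 2 or 3 and without each GL261 array in turn (adjusted p up to 0.127). Mrc1 is also on the list of border-associated macrophage genes.

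Several of these genes lie side by side in the genome, in the RefSeq annotation of GRCm38.p6. On chromosome 6 the run from Clec4a1 to Clec4e holds 9 protein-coding genes, of which 6 were measured and tested. In gene order these were Clec4a3 at a log2 fold change of 0.36, Clec4b1 at -2.96, Clec4a2 at 0.10, Clec4n at 1.14, Clec4d at 0.12 and Clec4e at 0.54. The called decrease and the called increase thus stand in the same cluster, with Clec4a2 and the unmeasured Clec4b2 between them, and Clec4d directly beside Clec4n was not called. In the other cluster of chromosome 6, between Clec12a and Olr1, 4 of 7 genes were tested and 0 were called, with Clec1a at 2.22, its adjusted p just above the threshold, and Olr1, the receptor gene for oxidised lipoprotein, at 1.38 (adjusted p = 0.0949) beside Clec7a at 0.49. Mgl2 and Clec10a are direct neighbours on chromosome 11, next to the liver lectin gene Asgr2, which had a log2 fold change of -1.02 (adjusted p = 0.243). Around Cd209a on chromosome 8 only Cd209c was called of 5 tested genes, with Cd209d at 0.15 (SE 0.68) and Cd209e at 0.04 (SE 0.94). Errors of that size leave room for large changes of Cd209d and Cd209e in either direction.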

How the data were processed

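RNA of macrophages sorted by GFP and F4/80 was hybridised as biotin-labelled cRNA to Affymetrix mouse arrays, 4 from GL261 tumours and 3 from normal brain. The deposited values are linear signal intensities, which the authors made with MAS5 per the submitters' processing notes, with version and detection calls not given in the sources used here. The mean without the lowest and highest 2% was 500 on each array, and 0 columns belonged to no sample. The number of arrays limits the precision.

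Of 45101 probe sets 64 were controls, 932 had several symbols and 9160 had none. For each gene the probe set of highest mean log2 value was taken. Genes were kept where the mean of log2(signal + 6) was above the 40th percentile of all probe sets (4.93), and 6 is near the 20th percentile of all values (6.17). GL261 was compared with normal brain in limma 3.58.1 (R 4.3.3), with variances that follow the mean signal and two-sided tests. The pseudocount shrinks fold changes of dim genes. A second fit used every probe set. The fit was also run on simulated data with independent noise on each array. That setting holds no outlying arrays and no group difference in RNA quality or cell mix, so it cannot check for them. Python 3.11.15 and matplotlib 3.10.9 made the figures.

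The members, the gene lists and the tests were chosen with earlier results of these data known. All receptor genes and probe sets are named. Names from each pathway list were limited to the 6 called members with the largest fold changes, or the 2 with the smallest p where none was called, and from each marker list to 2. The sorted population markers are always named, and other genes named were chosen after their values were seen. Alternatives were other pseudocounts (1 or the median of all values, 58.1), a filter at the 60th percentile or none, median centring or quantile normalization, a block for the replicate number, other variance models and probe set rules, array quality weights and leaving out each array. Leaving out GL261 replicate 2 together with normal brain replicate 1 was added after seeing the data.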

Additional observations from a re-analysis of the deposited data

Results flagged for a closer look

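The log2 values of 52 probe sets, those of the receptors and of the other genes named by rule, were examined for an array that lay far from the other 3 GL261 arrays, measured as its gap to the nearest value over the whole range (Dixon's gap test). Chance flags about 1 in 20 groups, and 3 were found. Cd209a was at 5.34 on GL261 replicate 1, with a gap of 0.972 of the range. Clec10a was at 10.09 on the same array, with a gap of 0.942 of the range. Mrc1 was at 12.21 on GL261 replicate 2. The normal brain group, with 3 arrays, was not examined in this way.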

How the results depend on the processing

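The number of genes called, 1227 with 718 higher and 509 lower, was 810 with 305 lower under median centring, 455 with 282 higher and 173 lower when variances did not follow the mean signal, and 317 lower with the mean of a gene's probe sets. It was 534 to 1179 without 1 array, with 293 to 768 higher and 241 to 441 lower. Without both GL261 replicate 2 and normal brain replicate 1, 327 genes were lower. Probe sets called, 1473 in the fit of every probe set, numbered 858 without a filter, 340 when variances did not follow the signal, 895 without those 2 arrays and 521 to 1356 without 1 array.

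Receptor genes called numbered 2, and 2 to 3 without 1 array, with 1 to 2 higher and 1 to 2 lower. When variances did not follow the signal, 1 was called, with 0 lower, and 1 receptor probe set was called in place of 3 (3 to 4 without 1 array). Quantile normalization gave 2 higher (Clec4n and Clec7a). A pseudocount at the median of all values gave 2 lower, with Cd209a at -2.40 (adjusted p = 0.0432). The replicate block also gave 2 lower, with Cd209a at -3.09 (adjusted p = 0.0449), and Ptprc became called at -0.45 (adjusted p = 0.0330). The labels do not say that numbers pair the arrays. Deviations of same-numbered arrays correlated at 0.0792, -0.0075 and 0.0310, which cannot show whether those arrays were processed together. Over the gene lists 60 genes were called, 25 when variances did not follow the signal and 43 to 56 without 1 array. Of 171 fold changes of receptor genes under alternatives 163 kept direction and side of the threshold, 6 became called, 1 lost its call and 1 reversed, Clec4d at -0.05 without both GL261 replicate 2 and normal brain replicate 1. The 2 sorted-population genes near 0 reversed: Aif1 (-0.03 without normal brain replicate 1, -0.04 without GL261 replicate 3) and Cd68 (-0.0098 with the block, -0.0021 without normal brain replicate 1, and without GL261 replicates 3 and 4 in turn -0.02 and -0.0098). With 1 array left out, Clec4d ranged over 0.02 to 0.19, Aif1 over -0.04 to 0.22 and Cd68 over -0.02 to 0.11. The causes were not tested. Signal close to background limits Cd209a on GL261 replicate 1.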
